A study of Mus musculus with 240 samples.

Results

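Genes named as pseudogenes (a gene name ending in -ps, or in -ps and digits) were followed across the founder strains of the Collaborative Cross. By this rule, 112 of the 14785 genes of the normalized table were chosen by name alone, of 1679 such names among the 55414 genes of the count table. RNA-seq was carried out on the prelimbic cortex (PrL), the core of the nucleus accumbens (NAcc) and the amygdala's central nucleus (CeA) of 48 naive mice, with 3 females and 3 males of each of 8 inbred strains. The 5 classical laboratory strains were C57BL/6J (B6), A/J (AJ), 129S1/SvImJ (S129), NOD/LtJ (NOD) and NZO/HILtJ (NZO), and the 3 wild-derived strains were WSB/EiJ (WSB), PWK/PhJ (PWK) and CAST/EiJ (CAST). NOD is written NOD/LtJ in the deposited design and NOD/ShiLtJ in the text of the study. The mice carried no transgene and received no treatment, and their age was given as 8 weeks in the deposited design and as 10 to 12 weeks in the methods of the study. Each group of a strain and a region held 6 libraries, 1 a mouse, except the NAcc of B6 with 5. Libraries held from 14942820 to 33951616 counts, with a median of 24456928. Levels are given in CPM, counts per 1e6 counts of a library whose size was scaled with TMM factors.

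A processed pseudogene arises when the mRNA of a parent gene is copied back into DNA and inserted elsewhere in the genome, usually without introns and without a promoter of its own. Highly expressed housekeeping genes, such as those of ribosomal proteins and glycolytic enzymes, have left many such copies. Because copies are inserted at different times, a copy can be carried by some mouse strains and be missing from others, and a young copy is nearly identical in sequence to its parent, so that short reads from both are hard to assign.

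The names were compared with an annotation of an older mouse build (GENCODE M21), joined by gene identifier. All 112 genes were found there, and 84 were annotated as processed pseudogenes and 5 as transcribed processed pseudogenes. A further 13 were unprocessed or unitary pseudogenes, and 1 had the type pseudogene only. The remaining 9 included 7 genes annotated as protein coding (among them Rps18-ps6, Rpl9-ps6 and Mindy4b-ps), 1 lincRNA (Tmem250-ps) and 1 processed transcript (Sfta3-ps). The label of processed pseudogenes therefore did not hold for all members, and the members are called -ps genes below. Of the 112, 17 lay within another gene on the same strand, for example Ndufa12-ps in Rabgef1 and Ap2m1-ps in Mbd5.

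Of the -ps genes, 95 could be aligned to the transcript of the gene named before -ps, here called the parent. Identity over the aligned bases had a median of 99.3% (88.4 to 100.0%), and the median number of mismatches was 4 (0 to 53). Across the members, a median of 49.3% of the windows of 100 bases in the member had no difference from the parent. The reads of all strains had been aligned to the B6 reference genome with up to 3 mismatches per 100 bases allowed, and reads with a unique position had been counted. The counts of a member and of its parent are uncertain to the extent that such reads can move from the one to the other. Stretches of 100 bases are shown for 5 members to which the results refer, each over its parent (GENCODE M21 transcripts, within the coding sequence of the parent, positions counted from the first base of the transcript). Capitals mark the bases at which member and parent differ. Each stretch was chosen for having the most differences and need not be typical of the whole copy. Over all aligned bases there were 3 mismatches in 483 (Rpl21-ps15), 5 in 545 (Rps18-ps6), 2 in 552 (Cbx3-ps7) and 10 in 438 (Rps15-ps2). Rpl21-ps15 was high in PWK, Rps18-ps6 in all strains but B6 and S129, Cbx3-ps7 in PWK and CAST and Rps15-ps2 in CAST, whereas Tpt1-ps3 had no mismatch with its parent over its whole length.
Rpl21-ps15, bases 333 to 432: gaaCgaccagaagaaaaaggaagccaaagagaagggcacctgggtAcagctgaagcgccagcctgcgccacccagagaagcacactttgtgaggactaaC
Rpl21, bases 627 to 726: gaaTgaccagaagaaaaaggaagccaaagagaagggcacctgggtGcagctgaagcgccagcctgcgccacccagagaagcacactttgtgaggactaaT
Rps18-ps6, bases 376 to 475: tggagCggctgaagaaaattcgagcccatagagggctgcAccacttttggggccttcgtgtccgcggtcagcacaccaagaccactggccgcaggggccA
Rps18, bases 389 to 488: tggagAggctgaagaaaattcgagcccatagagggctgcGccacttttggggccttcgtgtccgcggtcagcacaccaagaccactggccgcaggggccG
Cbx3-ps7, bases 300 to 399: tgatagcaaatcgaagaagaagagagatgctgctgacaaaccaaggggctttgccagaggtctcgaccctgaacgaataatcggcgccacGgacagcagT
Cbx3, bases 401 to 500: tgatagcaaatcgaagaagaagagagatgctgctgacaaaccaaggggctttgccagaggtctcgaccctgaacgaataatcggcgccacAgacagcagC
Rps15-ps2, bases 135 to 234: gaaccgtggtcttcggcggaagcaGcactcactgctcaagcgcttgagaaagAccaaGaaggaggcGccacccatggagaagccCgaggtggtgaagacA
Rps15, bases 163 to 262: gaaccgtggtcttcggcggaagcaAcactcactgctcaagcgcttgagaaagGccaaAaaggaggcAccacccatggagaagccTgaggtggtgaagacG
Tpt1-ps3, bases 1 to 100: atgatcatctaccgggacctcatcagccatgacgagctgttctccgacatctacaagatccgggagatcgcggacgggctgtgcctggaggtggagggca
Tpt1, bases 337 to 436: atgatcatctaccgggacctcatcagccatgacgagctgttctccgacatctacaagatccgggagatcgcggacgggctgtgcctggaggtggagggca

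Before the comparisons, the regions were checked against marker genes. The summed level of 6 striatal markers had a median of 2878 CPM in the NAcc and 144.4 CPM in the PrL, and that of 4 pallial glutamatergic markers had a median of 2579 CPM in the PrL and 15.03 CPM in the NAcc. The CeA was less distinct and varied between libraries. Its libraries had 143.3 to 6157 CPM of the striatal markers (median 826.5) and 19.45 to 2423 CPM of the pallial markers (median 1142), and the summed level of 4 central amygdala markers had a median of 390.8 CPM there, against 267.9 in the NAcc and 251.6 in the PrL. In 17 libraries these markers stood apart. There were 13 CeA libraries with 202.5 to 9212 CPM of 3 choroid plexus markers (2.343 to 142.9 in the other CeA libraries), 3 NAcc libraries with 305.3 to 824.5 CPM of the striatal markers (1100 to 5957 in the others) and 1 PrL library with 1604 CPM of them (91.47 to 388.8 in the others). The counts below are given without these libraries where they moved.

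Levels of the -ps genes were low. Their mean over all libraries had a median of 2.86 CPM of unscaled libraries (0.971 to 71.6), against 22.9 for all genes tested, and 74 of the 112 were below 5. The genes of the normalized table had been kept by a mean of about 1 CPM. Just inside this limit were Rbpj-ps3 (0.971) and Srsf3-ps (0.98), and just outside were Rps6-ps4 (0.929) and Rps13-ps2 (0.921). A gene with counts in only 1 or 2 strains passes such a limit only when it is high there, so for a member near the limit a difference between strains is in part required by the filter. Counts of members that differ are therefore descriptions, and the main ones are followed by those of the 38 members with a mean of at least 5. That mean is also taken over all strains. Some of the 38, such as Rps15-ps2 (mean 6.319), reach it through 1 strain only, so counts among the 38 remain descriptions too. Without the filter, 887 -ps names had at least 1 count, 350 of them never more than 3 counts in a library, and 33.8% of the 887 passed the F test over strains in the CeA, against 43.4% of the 40771 genes with a count.

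The summed level of the 112 genes separated the strains into 3 levels without overlap. In B6 the sum was between 313.7 and 415.0 CPM in all libraries of the 3 regions. In AJ, S129, NOD, NZO and WSB it was between 619.1 and 950.6 CPM. In PWK and CAST it was between 1232 and 1624 CPM. The sum holds members that passed the filter only through a strain in which they were high, such as Rpl21-ps15 in PWK and Rps15-ps2 in CAST. Abundant members weigh most in it, such as Ubb-ps in PWK and Atp6v0c-ps2 in the strains of the middle level. The levels of the sum are therefore a description. The medians in the CeA were 359.3 CPM in B6, 660.6 in NZO, 718.1 in AJ, 756.2 in WSB, 779.8 in NOD, 797.1 in S129, 1377 in CAST and 1431 in PWK. The libraries were sequenced in 3 trays, and in each of the 9 sets of 1 region and 1 tray the B6 libraries were below all others and the PWK and CAST libraries above all others. Since the tissue was bulk, fewer cells of a type and less RNA per cell cannot be told apart. The sum is also uncertain to the extent that reads in shared sequence moved between copies and parents. The part of either in these levels was not tested.

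**Figure D1:**
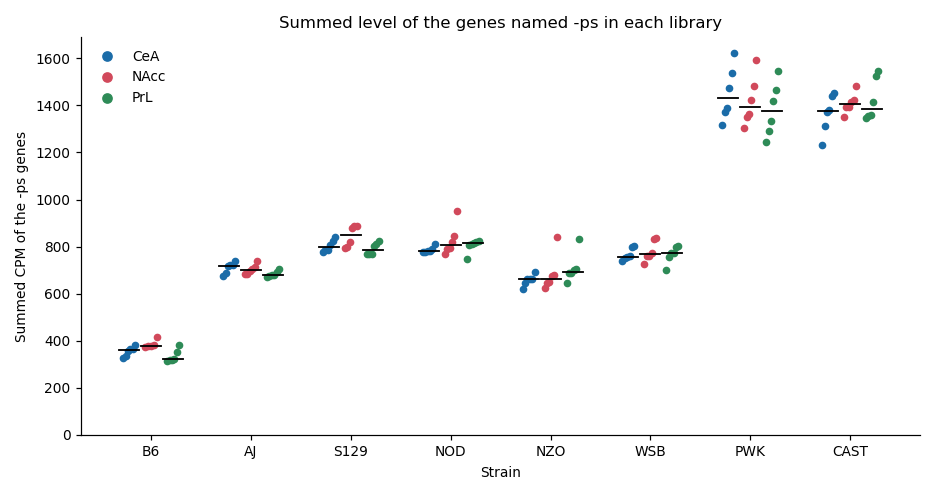
Summed CPM of the 112 -ps genes (y axis, linear from 0) in each library by strain (x axis), coloured by region, with points in order of value and black lines at the group medians. All B6 libraries sat at or below 415.0, and all PWK and CAST libraries at or above 1232.

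The question of which members differed between strains was answered by limma-voom in each region, on strain, sex and tray, with all 14785 genes tested together. At an adjusted p under 0.05 of the F test over 8 strains, 104, 102 and 101 members passed in CeA, NAcc and PrL. Of all genes, 80.6%, 75.2% and 83.9% passed. Passing in all 3 regions were 99 members, with a background of 60.1%. Highly differentially expressed genes (hDEGs), which exceeded a log2 fold change of 1 by limma's treat test in at least 1 of the 28 pairs of strains, numbered 88, 88 and 89 in CeA, NAcc and PrL. The background shares were 8.72%, 8.71% and 9.96%. In all 3 regions 87 members were hDEGs, with a background of 6.66%. In the fit of all genes, 30 of the 38 members with a mean of at least 5 CPM were hDEGs in all 3 regions (3% of all genes at that level). In a separate fit of only the genes at that level, 29, 30 and 30 of 38 were hDEGs in the CeA, NAcc and PrL. The shares of all genes in that fit were 3.65%, 3.57% and 4.41%. Among the 74 lower members the numbers in the fit of all genes were 58, 58 and 59, and the shares of all genes below 5 CPM were 26.4%, 26.7% and 29.5%. Without the 17 libraries that stood apart, 86, 87 and 88 members were hDEGs.

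The difference between the highest and the lowest strain mean had a median over members of 4.73 (log2) in CeA libraries, 4.54 in those of the NAcc and 4.63 in those of the PrL. The same median over all genes was 0.554, 0.555 and 0.484, and over the 81 parents tested it was 0.647, 0.666 and 0.597. With strains at the count floor (at most 3 counts in each library) set to 3 counts, the medians over members were 4.73, 4.54 and 4.62.

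**Figure D2:**
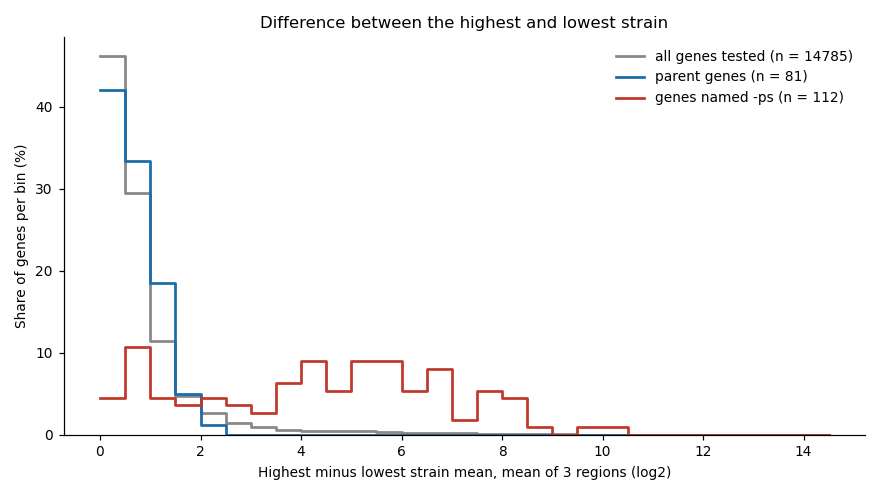
Share of genes per bin (y axis, percent) by the log2 difference between the highest and lowest strain mean (x axis, mean of 3 regions) for all genes tested, the 112 -ps genes and the 81 parents. The -ps genes spread up to 10.2, whereas the parents and all genes pile up below 1. The value of 10.2 is a fitted one, for Rpl21-ps15 against a strain at the count floor, and is not a measured size.

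CAST was the highest strain for 41 members and PWK for 33, over the mean of the regions, and the other strains for 4 to 8 each. Of all genes, CAST was highest for 18.9% and PWK for 18.6%. The lowest strain was WSB for 27 members, B6 for 23, AJ for 19 and S129 for 13, where the shares of all genes were 13%, 14.5%, 11.7% and 6.76%. Where several strains had next to no counts, as Cbx3-ps7 with 5 strains at the count floor, which was lowest rests on few reads. Among the 38 members with a mean of at least 5 CPM, CAST was highest for 13 and PWK for 9 (18.8% and 17.9% of all genes at that level), and B6 was lowest for 10, WSB for 8 and AJ for 7 (15.8%, 12.2% and 12%).

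In many members the strains fell into an upper and a lower set. A split was called where strains ordered by mean left a gap of at least 2 on the log2 scale and no library of the lower set reached a library of the upper set, in each of the 3 regions. There were 71 such members, and 2.47% of all genes tested were split in this way. The upper set held 1 strain in 17 members, 2 in 20, 3 in 14, 4 in 7, 5 in 2, 6 in 8 and 7 in 3, and there were 27 different sets. PWK was in the upper set of 55 of the 71 and CAST in that of 56, and of the 365 split genes among all genes tested, in 228 and 239. WSB was in the upper set of 24 members, NOD of 20, S129 of 18, and AJ and NZO of 16 each, against 176, 171, 168, 169 and 169 of the 365. B6, the strain of the reference genome, was in the upper set of 1 of the 71, Gpr137b-ps, and of 118 of the 365. Of the 38 members with a mean of at least 5 CPM, 25 were split, against 0.95% of all genes at that level. CAST was in the upper set of 23 of these, PWK of 19, WSB of 13 and B6 of 1, and of the 111 split genes at that level, in 82, 70, 69 and 35.

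**Figure D3:**
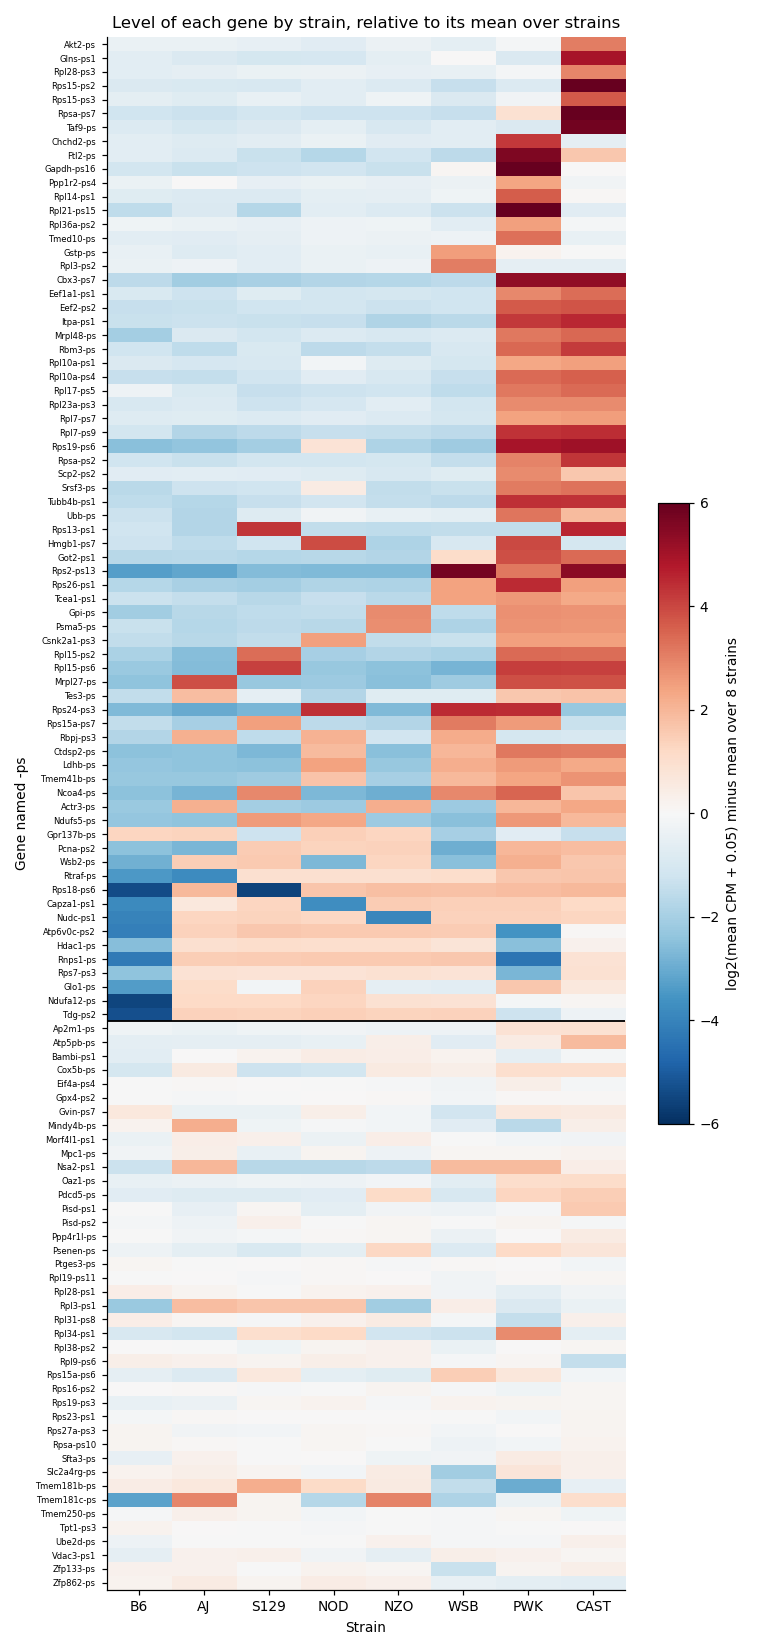
Level of each of the 112 -ps genes (rows) in each strain (columns) as log2(mean CPM + 0.05) minus its mean over the 8 strains, with the 71 split members above the black line. Red blocks in PWK and CAST and blue cells in B6 follow the counts of upper sets, 55, 56 and 1 of 71.

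The upper set was PWK alone in 8 members. These were Rpl21-ps15, Rpl14-ps1 and Rpl36a-ps2 (copies of large ribosomal subunit proteins), Gapdh-ps16 (a glycolytic enzyme), Chchd2-ps (a mitochondrial protein), Ftl2-ps (ferritin light chain), Ppp1r2-ps4 (a phosphatase inhibitor) and Tmed10-ps (a cargo receptor of the secretory pathway). Rpl21-ps15 had a median of 43.88 CPM in PWK (31.71 to 64.91, 18 libraries), and no library of the other strains had more than 0.3553 CPM. PWK was therefore apart in every library. With 3 counts per library taken as the floor, Rpl21-ps15 was at least 280-fold higher in PWK than in strains at the floor. S129 was at this floor in each region, so only a bound can be given there. PWK was at least 328-, 324- and 282-fold above it in CeA, NAcc and PrL. The mean of this gene passed the filter only through PWK, so a test over strains adds nothing here. Gapdh-ps16 had a median of 40.24 CPM in PWK (27.95 to 66.28) and at most 1.325 CPM in any other library. Ftl2-ps had 9.715 CPM in PWK (7.457 to 12.19), 0.5291 in CAST (0.2409 to 0.9415) and at most 0.324 elsewhere. CAST was thus low but above most libraries of the 6 lower strains.

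CAST alone was the upper set in 7 members, among them Rps15-ps2 and Rpsa-ps7, copies of genes of the small ribosomal subunit, and Taf9-ps, a copy of a subunit of a general transcription factor. Rps15-ps2 had a median of 56.94 CPM in CAST (39.18 to 66.92), and the other medians were 0.2066 to 0.3332. Rpsa-ps7 had 65.78 CPM in CAST (48.73 to 76.79) and 1.226 in PWK (0.5728 to 1.996). Taf9-ps had 13.5 CPM in CAST (7.689 to 17.47) and at most 0.3445 in any other library. For each of the 3, no library of another strain reached the lowest CAST library. The gene named Taf9 had 91 counts in all libraries together and was not tested, against 5108 counts of Taf9-ps.

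PWK and CAST together were the upper set in 18 members, the largest group. Cbx3-ps7, a copy of a heterochromatin protein gene, had a median of 13.19 CPM in PWK (9.94 to 16.4) and 12.73 in CAST (11.09 to 15.39). The highest library of the other strains had 0.2917 CPM. Against strains at the floor, the higher of both strains was at least 82.8-fold higher. Rps19-ps6 lies in Tecpr2 and copies a small ribosomal subunit gene. It had 71.75 CPM in CAST (54.38 to 90.65), 62.52 in PWK (46.93 to 86.73), 3.474 in NOD (1.968 to 7.343) and 0.3095 to 0.5383 in the others (medians). Every NOD library lay above those of the other lower strains and below those of PWK and CAST. Ubb-ps, a copy of a polyubiquitin gene, had 168.8 CPM in PWK (142.1 to 324.7) and 73.33 in CAST (65.31 to 93.7). In the other strains its medians were 3.67 in AJ to 15.58 in NOD, and their highest library had 32.8 CPM.

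Other sets crossed the division between classical and wild-derived strains. Rps24-ps3 had 41.94 CPM in WSB (31.84 to 63.21), 39.32 in PWK (29.2 to 57.41) and 38.77 in NOD (29.67 to 52.55), and its highest library among the other 5 strains had 1.032 CPM. Rpl15-ps6 had 13.08 CPM in S129 (11.15 to 17.46), 13.15 in PWK (10.75 to 21.06) and 12.84 in CAST (10.5 to 19.36), with at most 0.8291 elsewhere. The 3 upper strains of each overlapped one another. Rps2-ps13 was uneven within its upper set, with 88.28 CPM in WSB (73.08 to 125.0), 74.95 in CAST (58.23 to 93.42) and 14.98 in PWK (12.28 to 20.61). Rps18-ps6 had 6 upper strains. Its medians were 18.62 CPM in NOD, 19.14 in WSB, 20.73 in PWK, 21.01 in NZO, 22.02 in AJ and 22.6 in CAST (13.38 to 32.99 over all their libraries), against 0.09722 in B6 and 0.06502 in S129 (at most 0.3021).

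Few members were split with B6 on the lower side alone. Ndufa12-ps, a copy of a gene of respiratory complex I, had 0.1723 CPM in B6 (0.04584 to 0.594). The other strains had medians of 10.93 in PWK to 28.81 in NOD, and no library below 9.03. Tdg-ps2 (a DNA repair glycosylase) had a median of 0 in B6 and of 0.9443 in PWK to 6.502 in AJ. Glo1-ps (a glyoxalase) had 0.233 in B6 (0.0 to 0.81) and 2.149 in WSB to 9.751 in PWK. B6 and PWK were the lower set for 4 members, Atp6v0c-ps2, Hdac1-ps, Rnps1-ps and Rps7-ps3. Atp6v0c-ps2, a copy of the gene of the proton pore subunit of the vacuolar ATPase, was among the most abundant members. It had 2.017 CPM in B6 (1.252 to 3.971), 3.074 in PWK (2.062 to 4.885), 40.28 in CAST (29.05 to 64.19) and 104.1 to 122.0 (medians) in the other 5 strains. Gpr137b-ps, an unprocessed copy of a gene of a lysosomal membrane protein, had 9.809 to 11.46 CPM (medians) in NZO, B6, AJ and NOD and 1.066 to 2.668 in WSB, CAST, S129 and PWK.

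**Figure D4:**
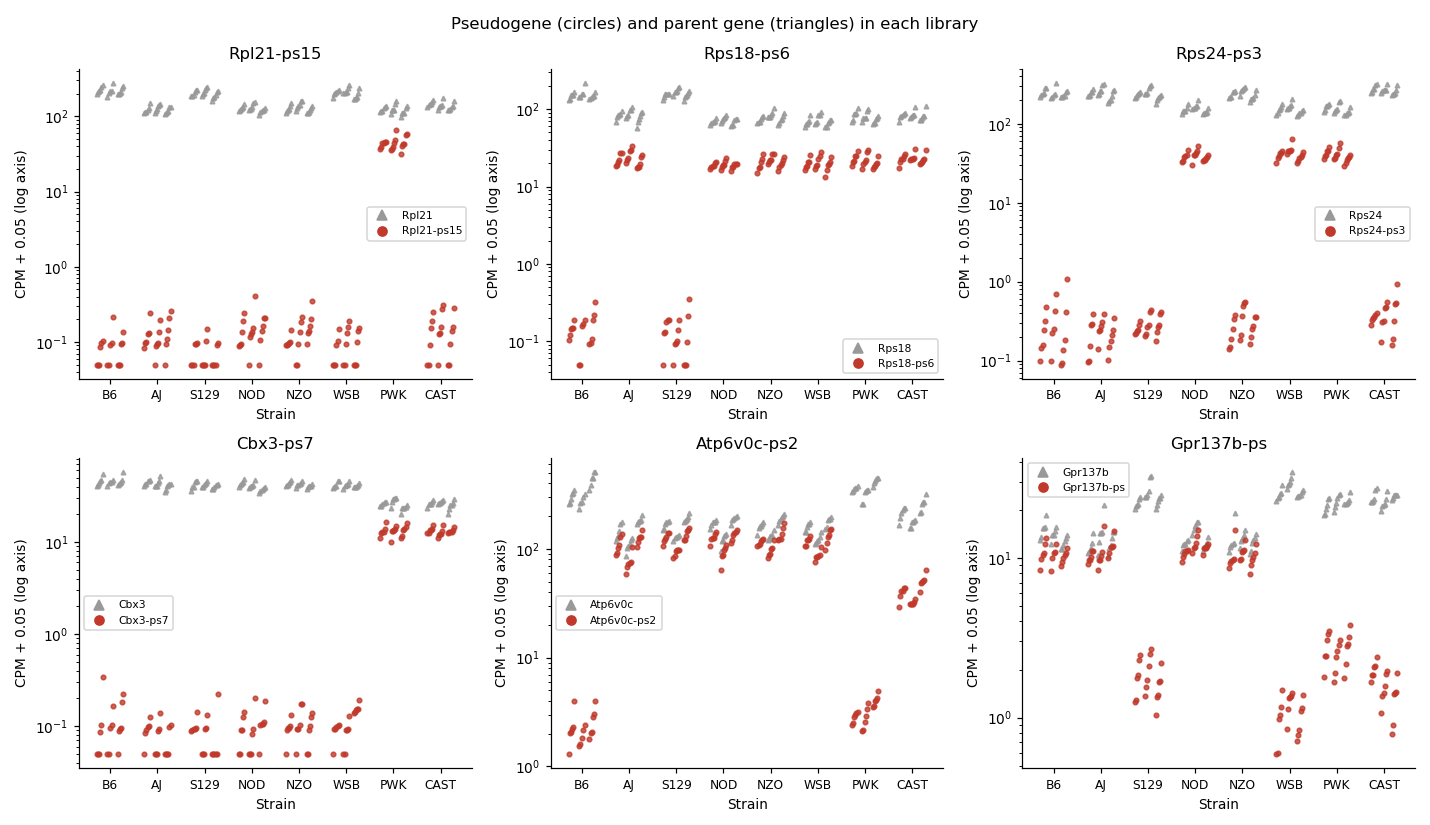
CPM + 0.05 (log axis) of 6 -ps genes (red circles) and their parents (grey triangles) in each library, by strain, with the CeA on the left, the NAcc in the centre and the PrL on the right of each strain and points in order of value. Each member steps between sets of strains (Rps18-ps6 below 0.31 CPM in B6 and S129 and above 13 in the others), and its parent moves by far less.

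Not all members with high levels were split. Tmem250-ps, annotated as a lincRNA, had the highest mean of all, with medians from 65.75 CPM in CAST (59.16 to 86.38) to 97.83 in AJ (83.01 to 140.3). Its libraries overlapped between strains, and its log2 difference between the highest and lowest strain was 0.71 ± 0.11 in the CeA (adjusted p of the F test = 3.28e-06, limma). Ap2m1-ps, a copy of the gene of an adaptor subunit of clathrin-coated vesicles, had 53.17 CPM in PWK (39.78 to 74.87), 51.89 in CAST (44.13 to 74.0) and 21.98 to 26.55 in the others (medians). Tmem181b-ps was graded, with 140.0 CPM in S129 (106.3 to 221.3), 68.98 in NOD, 50.43 in AJ, 45.52 in NZO, 40.6 in B6, 22.15 in CAST, 11.18 in WSB (8.004 to 13.17) and 3.976 in PWK (2.473 to 4.675). S129 lay above and PWK below every library of all other strains. The neighbours AJ, NZO and B6 overlapped.

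The members with the smallest differences at a mean of at least 5 CPM were Gpx4-ps2, Tpt1-ps3, Tmem250-ps and Ube2d-ps. Tpt1-ps3, a copy without mismatch of a translationally controlled protein's gene, had medians of 5.02 to 6.664 CPM. Gpx4-ps2, a copy of a glutathione peroxidase gene, had medians of 5.655 to 6.601 CPM and did not pass the F test in any region (adjusted p = 0.33, 0.954 and 0.0527, limma). The strains overlapped in both. Ube2d-ps had medians of 20.63 CPM in B6 to 29.62 in NZO and passed in all 3 regions, with 0.56 ± 0.08 between NZO and B6 in the CeA.

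Besides Gpx4-ps2, the F test was not passed in any region by Rpl38-ps2, Rps16-ps2, Rps27a-ps3, Rpl19-ps11 and Vdac3-ps1, which are named because they failed. The first 4 had differences of 0.42 to 0.69 on the log2 scale (mean of the regions), and that of Vdac3-ps1 was 2.67. Vdac3-ps1, a copy of a gene of a mitochondrial channel, fell into 2 clusters of libraries within the groups. It had 7.96 to 18.5 CPM in 56 libraries and 0.218 to 1.75 CPM in the other 87, with none between, and 23 of the 24 groups of a strain and a region held libraries of both clusters. Among 96 libraries that were sequenced in 2 runs, 13 were in the upper cluster in both runs, 36 in the lower in both, and 47 in different clusters in the 2 runs. The level of Vdac3-ps1 was thus not a fixed property of a library. Whether a step of the read processing set the cluster was not tested. Within the groups, its median log2 range over libraries was 3.86, and the next largest among members was 1.28 (Rps27a-ps3). Vdac3-ps1 was examined in this way after its values were seen.

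Genes called unique DEGs of a strain lay above, or below, every other strain in the 7 tests of that strain. Unique in the same strain and direction in all 3 regions were 40 members, with a background of 8.62% of all genes. PWK was higher in 15 (background 1.44%) and CAST in 12 (background 1.64%). WSB was higher in 5, namely Rpl3-ps2, Gstp-ps, Rps15a-ps6, Rps15a-ps7 and Rps2-ps13 (background 0.392%), and lower in 2, Slc2a4rg-ps and Zfp133-ps (background 0.541%). B6 was lower in Ndufa12-ps, Tdg-ps2 and Glo1-ps (background 0.284%) and higher in none. Single members were unique in AJ (Mindy4b-ps, higher, background 0.156%), in S129 (Tmem181b-ps, higher, background 0.0947%), in PWK (Tmem181b-ps, lower, background 1.73%) and in CAST (Rpl9-ps6, lower, background 1.67%). Tmem181b-ps was counted for both S129 and PWK.

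Some unique members were not absent elsewhere. Rpl3-ps2 had a median of 7.71 CPM in WSB (5.705 to 16.9) and of 0.5625 to 0.7852 in the others, and no other library reached 5.705. Slc2a4rg-ps had 1.103 CPM in WSB (0.7554 to 2.388) and 4.999 to 8.553 in the others, with libraries that overlapped. Rpl9-ps6 had 0.9503 CPM in CAST (0.3168 to 1.76) and medians of 2.611 to 3.301 in the others. Mindy4b-ps had 4.285 CPM in AJ (0.8171 to 10.3), and its libraries overlapped with those of CAST (0.2031 to 3.676).

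In the study, B6 and PWK were the strains of high ethanol preference, and each was compared with the mean of the other 6 (Low_Average). Lower in B6 were 66, 58 and 66 members (CeA, NAcc and PrL), with backgrounds of 18.6%, 14.3% and 19.1%. Higher in B6 were 11, 4 and 6, with backgrounds of 22.5%, 17.2% and 18.5%. PWK went the other way, with 67, 65 and 68 members higher (backgrounds 20.2%, 20.2% and 23.8%) and 21, 19 and 20 lower (backgrounds 18.8%, 18.5% and 22.7%). In all 3 regions, 52 members were lower in B6 (background 4.64%) and 2 higher (background 6.11%), and 65 were higher in PWK (background 11.2%) and 16 lower (background 11%). Of the 38 members with a mean of at least 5 CPM, 25 were lower and 1 higher in B6 (4.41% and 5.26% of all genes at that level), and 21 were higher and 8 lower in PWK (9.68% and 10.3%). In the CeA, the median log2 difference over members was -0.83 for B6 and 1.25 for PWK, against 0.00714 and 0.00722 over all genes. Both contrasts share the Low_Average libraries. Low_Average also contains CAST, the highest strain for 41 members (18.9% of all genes). A member lower in B6 than Low_Average need not be lower than in each other strain. B6 was the lowest strain for 23 members (14.5% of all genes). Without the 17 libraries that stood apart, 45 members were lower in B6 in the CeA, and in the NAcc and the PrL 58 and 66 were.

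Members lower in both B6 and PWK included Atp6v0c-ps2, with differences of -5.52 and -5.14 in the CeA (adjusted p = 2.71e-25 and 6.8e-26, limma). Bambi-ps1, a copy of a gene for a decoy receptor of TGF-beta family signals, differed by -0.94 and -0.74 in the CeA (adjusted p = 4.86e-06 and 8.77e-05). Its medians over the regions were 1.072 CPM in B6 (0.5016 to 2.51) and 1.295 in PWK (0.761 to 1.952), and 1.782 to 2.449 in the other strains, with overlap. In PWK in the NAcc its difference of -0.27 did not pass (adjusted p = 0.235). Rps18-ps6 differed in opposite directions, by -6.22 in B6 and 1.44 in PWK in the CeA (adjusted p = 2.32e-15 and 5.55e-15). No CeA library of B6 had more than 3 counts of it, so the size of the B6 difference was not measurable. The mean of the low preference strains contains S129, the other strain with next to no counts of this gene.

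Members were also grouped by the name of the parent, with lists of name stems that do not hold every gene of a function. The 38 copies of ribosomal protein genes formed the largest group. Of them, 31 passed the F test in all regions (background 60.1%), 28 were hDEGs in all regions (background 6.66%) and 25 were split (background 2.47%), with a median strain difference of 4.51. Against Low_Average in all regions, 21 were higher and 4 lower in PWK (backgrounds 11.2% and 11%), and 14 were lower and none higher in B6 (backgrounds 4.64% and 6.11%). Of these copies, 10 had a mean of at least 5 CPM, and 10 of them were hDEGs and 9 split. The 6 copies of genes of the respiratory chain, mitochondrial ribosome and ATP synthase, such as Ndufa12-ps, were hDEGs in all regions, 5 were lower in B6 and 4 were split (median 5.64). The list of metabolic enzymes held 6 members, Gapdh-ps16, Glo1-ps, Ldhb-ps, Glns-ps1, Pisd-ps1 and Pisd-ps2, of which 5 were hDEGs and 4 were split (median 5.24). The list of nuclear proteins held Taf9-ps, Tdg-ps2, Rbm3-ps and Hmgb1-ps7, all 4 of which were hDEGs and split (median 7.14), and none had a mean of 5 CPM. The list for translation held Eef1a1-ps1, Eef2-ps2, Eif4a-ps4 and Tpt1-ps3, the last of which copies no translation factor gene, and 2 were hDEGs and split (median 2.61). Among Ubb-ps, Ube2d-ps, Psma5-ps and Ptges3-ps, copies of genes of ubiquitin, the proteasome and a chaperone, 2 were hDEGs and split (median 2.97). The 50 other members, which include the copies of chromatin genes Cbx3-ps7, Hdac1-ps and Morf4l1-ps1 and of the metabolic genes Gpi-ps and Got2-ps1, had 40 hDEGs and 30 splits, with a median of 4.2. At a mean of at least 5 CPM, 14 of 19 of them were hDEGs and 11 were split.

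By annotated type, 69 of the 84 processed pseudogenes were hDEGs in all regions (background 6.66%) and 60 were split (background 2.47%), with a median strain difference of 5.2. Of the 28 members of other types, 18 were hDEGs in all regions and 11 were split, with a median of 3.16. At a mean of at least 5 CPM, 20 of 22 processed pseudogenes were hDEGs and 18 were split, and 10 of 16 other members were hDEGs and 7 were split, where 3% and 0.95% of all genes at that level were. Grouped by mismatches, of the 11 members without a mismatch to the parent, 5 passed the F test in all regions (background 60.1%) and 4 were hDEGs (background 6.66%), with a median strain difference of 1.17 (0.314 to 3.64). Of the 37 members with 1 to 4 mismatches, 33 passed and 30 were hDEGs, with a median of 4.59. Of the 28 with 5 to 10 mismatches, 27 passed and 27 were hDEGs, with a median of 5.98. All 19 with more passed and 16 were hDEGs (median 5.1). This is a description over genes, which cannot stand for replicates.

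The rule for this set of genes also asked for the count of the parent in the same libraries. A parent was tested for 92 members (81 different genes), 3 parents were not among the genes tested (Eef1a1, Taf9 and Gapdh), and for 17 members there was no gene of that name. The count of a member had a median of 3.37% of the parent's count over all libraries, and of 14.4% when both were divided by exonic length, taken over all annotated transcripts of a gene together. It was below 1% of the parent's count for 16 members and above 10% for 18. Besides Taf9-ps, the highest shares over all libraries were those of Pisd-ps1 (58.1%) and Bambi-ps1 (56.4%). Within single strains other members were higher, as Ndufs5-ps (56.2% over all libraries) had 288% of its parent's count in PWK and 2.57% in B6, and Rps26-ps1 had 221% in PWK and 0.582% in B6. Both lay above the highest single-strain share of Pisd-ps1 and of Bambi-ps1 (95.7% in NZO). Ndufs5-ps and Rps26-ps1 are named for these values, after they were seen.

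Parents varied far less than their copies. Of the 81 parents, 74, 73 and 78 passed the F test in the CeA, NAcc and PrL (backgrounds 80.6%, 75.2% and 83.9%). Only 8, 7 and 8 were hDEGs, which was near the backgrounds of 8.72%, 8.71% and 9.96%. Against Low_Average, 40, 34 and 40 parents were higher in B6 (backgrounds 22.5%, 17.2% and 18.5%) and 2, 4 and 4 lower (18.6%, 14.3% and 19.1%). In PWK, 14, 8 and 9 were higher (20.2%, 20.2% and 23.8%) and 38, 49 and 47 lower (18.8%, 18.5% and 22.7%). Their medians were 0.139 for B6 and -0.109 for PWK in the CeA, each of the opposite sign to that of the members.

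In the following pairs, the parent was low in the strains in which the copy was high. Rps18 had medians of 150.1 CPM in B6 (132.5 to 220.3) and 157.6 in S129 (127.1 to 192.9), the strains with next to no counts of Rps18-ps6, and of 67.51 to 83.9 in the 6 others, whose highest library had 108.7 CPM. The groups did not overlap. The count of Rps18-ps6 was 26.8% to 28.6% of that of Rps18 in these 6 strains, and 0.0648% and 0.0496% in B6 and S129. Divided by exonic length, which is 561 bases for the copy and 2451 for all transcripts of Rps18 together, the shares were 117% to 125% and 0.283% and 0.217%, and they depend on the long exonic length of the parent. Cbx3 had 25.71 CPM in PWK (20.03 to 30.13) and 26.19 in CAST (20.11 to 29.05), against 40.0 to 44.71 in the others (medians; lowest library 34.31). The log2 difference of Cbx3 between B6 and CAST was 0.81 ± 0.06 in the CeA (adjusted p of the F test = 1.46e-17, limma). Rps24 had 150.7 CPM in NOD, 151.5 in WSB and 150.2 in PWK (126.4 to 209.0 over their libraries), and 234.2 to 265.4 in the other 5 strains. Atp6v0c had 322.0 CPM in B6 (231.6 to 509.5) and 359.5 in PWK (258.2 to 453.5), 213.2 in CAST and 138.2 to 173.3 in the others. Gpr137b had 12.42 to 13.84 CPM in the 4 strains with high Gpr137b-ps and 21.98 to 25.6 in the other 4.

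Over the 8 strain means, the correlation of log2(CPM + 0.05) of member and parent was negative for 72 of the 92 pairs, below -0.5 for 62 and above 0.5 for 6, with a median r of -0.81. It was -0.99 for Cbx3-ps7 and for Gpr137b-ps, -0.98 for Atp6v0c-ps2 and Rps24-ps3, and -0.97 for Rps18-ps6. These values describe 8 points from the same libraries and reads, with no test. Rpl21-ps15 went less closely with its parent (r = -0.46). Rpl21 was low in PWK (120.9 CPM) but as low in AJ (119.6), NOD (124.3) and NZO (126.9), where Rpl21-ps15 had next to no counts. Pisd-ps1 was high in CAST (38.18 CPM, 28.09 to 43.51) against 8.259 to 13.56 in the others, while Pisd was between 23.28 and 26.08 in all strains (r = 0.29).

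The level of each parent was also summed with that of its members. The log2 ratio of the highest to the lowest strain had a median of 0.597 for the 81 parents alone and 0.399 for the sums, and it was smaller in the sum for 68 of the 81. Of the 45 parents with a ratio of at least 0.5, it was smaller in the sum for 43 (median 0.844 alone and 0.589 in the sum). For Gpr137b it went from 1.05 to 0.252, for Cbx3 from 0.814 to 0.22, for Rps19 from 0.804 to 0.217 and for Atp6v0c from 1.33 to 0.57. Ncoa4, which encodes a receptor for ferritin degradation, showed the closest match, but was chosen after its values were seen. Ncoa4-ps had 19.08 CPM in PWK, 13.38 in S129, 13.37 in WSB, 5.572 in CAST and 0.1442 to 0.2503 in the others. Ncoa4 itself had 28.78, 34.93, 34.63 and 42.96 CPM in those 4 strains and 47.75 to 49.74 in the others. The sums lay between 47.52 and 50.28 CPM, and the log2 ratio went from 0.812 to 0.0813. There were exceptions. For Rpl21 the ratio was 0.844 alone and 0.84 in the sum, for Rps18 it went only from 1.17 to 0.826 and for Glo1 from 1.9 to 1.77, and for Pisd it rose from 0.171 to 0.821. Whether reads of the parent were counted on the copy, or whether both transcripts were present at these levels, was not tested.

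**Figure D5:**
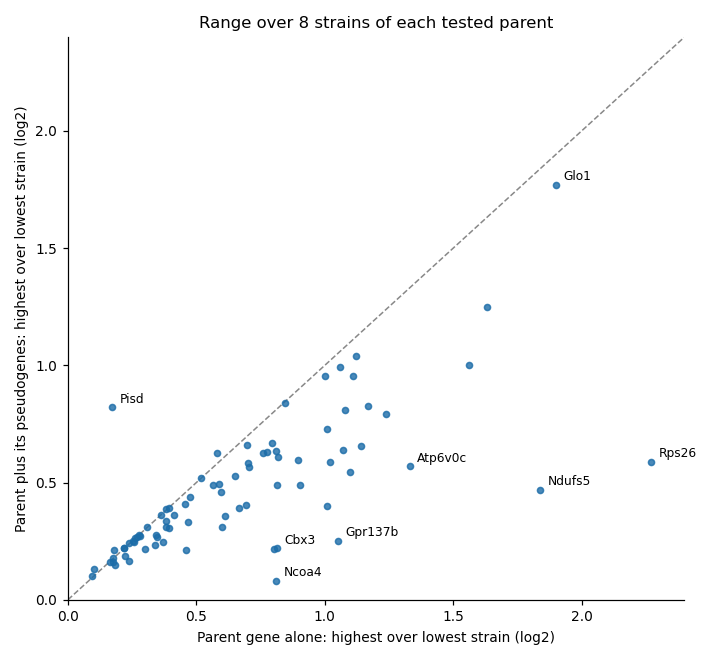
Log2 ratio of the highest to the lowest strain for each of the 81 parents alone (x axis) and summed with its -ps genes (y axis), with the dashed line of equal ratios. 68 points lie below the line, with Ncoa4, Gpr137b and Cbx3 far below it and Pisd above it.

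Regions were compared in 1 model over all libraries, averaged over strains and without a term for the mouse. Between CeA and NAcc 48 members passed, between CeA and PrL 34 and between NAcc and PrL 49, with backgrounds of 69%, 73.8% and 82.3%. Among the 74 members below 5 CPM, 34, 16 and 27 passed, where 61.8%, 66.4% and 75% of all genes below 5 CPM did. The median absolute log2 difference over members was 0.187, 0.123 and 0.184, and over all genes it was 0.138, 0.169 and 0.261. Members thus had the larger median between CeA and NAcc and the smaller one in the other contrasts. Without the 17 libraries that stood apart, 38, 27 and 44 passed. Sfta3-ps was by far the most regional, with 3.893 to 9.492 CPM in the NAcc and 1.358 to 4.364 in the CeA (medians by strain), whereas no PrL library exceeded 0.8906. Averaged over strains, it was 1.37 ± 0.09 lower on the log2 scale in the CeA than in the NAcc (adjusted p = 5.58e-27, limma).

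Strain differences that varied with the region were tested as an interaction in 1 model over all libraries. Only 5 of the 112 members passed (background 34.2%), and 2 of the 74 below 5 CPM did (background 29.1%). A missed threshold does not show that the strain pattern was equal in the regions. Sfta3-ps had the smallest adjusted p (0.000723, limma). B6 was lowest in the NAcc, at 3.893 CPM (2.124 to 4.314). In the CeA it had 3.115 CPM (2.203 to 3.907) against 1.574 (0.927 to 1.86) in NOD. Pisd-ps1 (adjusted p = 0.00121) was highest in CAST in each region, and its difference between CAST and NOD was 1.84 ± 0.09 (log2, SE), 2.16 ± 0.12 and 2.48 ± 0.09 in CeA, NAcc and PrL. Gpr137b-ps followed with an adjusted p of 0.0233, and its split between strains held in each region. Without the 17 libraries that stood apart, Sfta3-ps and Pisd-ps1 passed and Gpr137b-ps did not (adjusted p = 0.0545).

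No member differed between females and males in any region by limma at an adjusted p under 0.05, and none did by edgeR's quasi-likelihood test. The backgrounds were 0.135%, 0.0812% and 0.0947%. At an unadjusted p under 0.05 there were 7, 10 and 7 members, and the smallest adjusted p was 0.466, 0.517 and 0.326.

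Finally, members were listed that had at most 3 counts in every library of a strain in all 3 regions. There were 9, with a background of 0.487% of all genes. All 9 had a mean below 5 CPM, where 2.03% of all genes were at the floor, and none of the 38 members above that was. The count rests on the floor chosen, with 0 members at 0 counts and 42 at 10 counts or fewer. Cbx3-ps7 was at this floor in 5 strains (AJ, S129, NOD, NZO and WSB), Mrpl27-ps in 4 (B6, NOD, NZO and WSB), and Rpl21-ps15 (B6, S129 and WSB) and Ftl2-ps (S129, NOD and WSB) in 3 each. Rpl15-ps2, Rpl7-ps9 and Rbm3-ps were at the floor in AJ only, and Tdg-ps2 and Tmem41b-ps in B6 only. A count at the floor was not detectable expression at this depth, and does not show that the copy is missing from the strain. All 112 genes are annotated in the reference genome, which is that of B6, so B6 carries each of them. For reads in shared sequence, a low count cannot be told apart from reads assigned elsewhere.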

How the data were processed

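The data were RNA-seq counts and log2 values of 3 brain regions of 48 mice of 8 strains. The authors trimmed the reads (Trimmomatic), aligned them to GRCm39 with STAR 2.7.3a and counted uniquely aligned reads per gene. The counts were deposited as whole numbers in 240 columns, since libraries of trays 2 and 3 were sequenced in 2 runs with a column each. For the log2 values, the authors kept 14785 genes and 143 libraries and deposited log2 CPM after TMM scaling. Log2 values recomputed from the counts differed from them by at most 5e-06. These 143 libraries were used here.

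In each region strain, sex and tray were fitted with voom (prior count 0.5) and tested with limma 3.58.1 and edgeR 4.0.16 in R 4.3.3, with Benjamini-Hochberg adjustment over all 14785 genes and a threshold of 0.05. The 28 contrasts of strains were adjusted together, hDEGs were tested with treat against a log2 fold change of 1, and the contrasts of B6 and PWK with Low_Average were adjusted together. Region contrasts and the interaction came from 1 model over all libraries. The pairing of regions by mouse comes from the labels. In residuals, the median correlation of the same mouse was 0.0552 between CeA and NAcc, 0.0257 between CeA and PrL and 0.00961 between NAcc and PrL, and the block correlation was 0.0476. The fits were tested on simulated data. Alternatives were DESeq2 1.42.0, edgeR's quasi-likelihood test, other filters, normalizations, runs, weights and libraries.

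The genes, lists and tests were chosen with earlier results of these data known. Named genes were the 12 members with the largest strain difference, the 5 with the highest mean, the 4 with the smallest difference at a mean of at least 5 CPM, the leading unique DEG of each strain and direction, the 3 with the highest share of the parent's count, and the 3 with the smallest interaction p. Other members are named as members of a set. Types, lengths and sequences came from GENCODE M21, an annotation of an older build, joined by gene identifier. Its coordinates were used only within that build, for exonic lengths, coding ranges and genes that contain a member. Copies were aligned to parent transcripts with Biopython 1.88, and figures were drawn with matplotlib 3.10.9. Replicates were separate mice. Libraries held a median of 24456928 counts, and the floor of 3 counts covers counting error only.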

Additional observations from a re-analysis of the deposited data

Results flagged for a closer look

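In 4 of the 53 groups tested, 1 library stood farther from the others than Dixon's 95% critical value allows, and chance flags about 1 in 20 groups. The tested values were the summed level of the -ps genes in each of the 24 groups of a strain and a region, and the level of each of the 29 named genes in the CeA of its highest strain. The NAcc of B6 mouse 41 had a sum of 415.0 CPM (373.0 to 380.0 in the other 4). The NAcc of NZO mouse 26 had 838.7 CPM (623.5 to 679.2 in the others), and the PrL of NZO mouse 42 had 831.0 CPM (645.1 to 705.1 in the others). The PrL of NOD mouse 15 was low, with 748.9 CPM (806.1 to 822.0 in the others). All 4 mice were female, and the 3 high libraries were of tray 2 and the low one of tray 3. The 3 high libraries also held the fewest counts of their groups (20929579, 18240695 and 14942820), and the low one did not. The part of sex, tray and depth in these values was not tested. No level of a single named gene stood out in this way.

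In 5 members the differences between strains varied with the region by the interaction test (limma, adjusted p over all genes). These were Sfta3-ps (adjusted p = 0.000723), Pisd-ps1 (0.001208), Gpr137b-ps (0.02333), Ppp4r1l-ps (0.03277) and Bambi-ps1 (0.04017). Without the 17 libraries that stood apart by tissue markers, the values were 0.008062, 0.002686, 0.05445, 0.1172 and 0.1576, so that the first 2 passed. Ppp4r1l-ps was highest in CAST in each region, with medians of 26.54, 27.81 and 24.31 CPM (CeA, NAcc and PrL). The lowest strain was WSB in the CeA (14.3 CPM, 12.99 to 16.01) and the PrL (12.91 CPM, 11.74 to 13.9), and B6 in the NAcc (17.23 CPM, 16.35 to 21.47). For Bambi-ps1, the lowest strain was B6 in the CeA (1.124 CPM) and the NAcc (0.7416 CPM), and PWK in the PrL (1.034 CPM).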

How the results depend on the processing

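Of the results over all members, 256 alternative values stayed within 1.5 times the reported count. Most of the values that did not came from the stricter filter. For single named genes, only the size factors of DESeq2 and edgeR's quasi-likelihood test were tried. There the difference between the highest and lowest strain kept its direction and its side of the F test's threshold in all 174 values. The other alternatives were not run for them. With a mean of at least 5 CPM, 38 members were tested, so counts fell by construction: the F test was passed by 37, 36 and 36 (CeA, NAcc, PrL) and hDEGs numbered 29, 30 and 30. B6 was higher in 5, 2 and 3 and lower in 27, 27 and 29, PWK was higher in 21, 21 and 22 and lower in 8, 10 and 10, 12 members were unique DEGs and 0 had a strain at the floor. Of all genes at that level, 59.1% passed the F test, 3% were hDEGs and 7.33% unique DEGs in all 3 regions of the fit of all genes. In the fit of all genes (chosen after seeing the data), the 38 had 25 splits (71 over all members), and in all 3 regions 25 lower and 1 higher in B6 and 21 higher and 8 lower in PWK (52, 2, 65 and 16). The shares of all genes at that level were 0.95%, 4.41%, 5.26%, 9.68% and 10.3%. Among members below 5 CPM there were 58, 58 and 59 hDEGs (26.4%, 26.7% and 29.5% of all genes below 5 CPM). Members higher in B6 numbered 8 in the NAcc with sample quality weights (4 without) and 7 in the CeA with the first run of tray 3 (11 with the second). The cause was not tested. A floor of 0 counts left 0 members and one of at most 10 counts gave 42, in place of 9. Leaving out the 17 libraries that stood apart, an alternative chosen after seeing the data, left 2 members past the interaction test in place of 5, and among the named genes Gpr137b-ps (adjusted p = 0.05445) and Bambi-ps1 (0.1576) no longer passed. Leaving out each B6 library of the NAcc in turn gave 87 to 88 hDEGs and 49 to 56 members lower and 4 to 6 higher in B6. With mouse as a replicate block, 5 members passed the interaction test and 48, 34 and 52 the region contrasts, and no other result has a pairing. Levels below about 3 counts per library were not measurable at this depth.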

Other observations

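Vdac3-ps1 fell on either side of a gap between 1.75 and 7.96 CPM, and the libraries on the upper side numbered from 5 of 17 in B6 and 5 of 18 in NZO to 10 of 18 in WSB. By tray, 18 of 48 libraries were on the upper side in tray 1, 19 of 47 in tray 2 and 19 of 48 in tray 3. By region, 15 of 48 CeA, 17 of 47 NAcc and 24 of 48 PrL libraries were, and by sex 33 of 71 female and 23 of 72 male libraries. No test was made of these counts. Of the 48 mice, 37 had libraries on both sides, 10 had all on the lower side and 1 had all on the upper side. Over the 240 columns of the count table, including both runs of trays 2 and 3, 91 were between 6.77 and 15.6 CPM of unscaled libraries and 149 between 0.171 and 1.85. No value lay at 5, within the widest gap. The clusters were described after the values were seen, and no group was formed from them.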
